A study of Homo sapiens with 6 samples.

Results

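The genes described here are the translation initiation factors, the proteins that bring the ribosome, the initiator transfer RNA and a messenger RNA together at a start codon. They were taken as the genes whose official symbol begins with EIF1 to EIF6, leaving out the EIF2AK kinases, and each was read from its brightest probe set that carries a single gene symbol. The rule found 47 of the 18132 genes tested, measured by 152 probe sets. RNA came from 786-O cells (786O in the labels), an established line from a human renal cell carcinoma, on 6 single-colour arrays. On 3 arrays the cells carried a lentiviral short hairpin RNA targeting PLEKHO1 (shPLEKHO1), and on 3 they carried a negative control hairpin (shNC), which the series' design text describes as delivered by lentivirus too. All were grown in RPMI medium with fetal bovine serum. The treatment text is the same on all 6 samples and names only the hairpin against PLEKHO1, also for shNC, so the groups were taken from the source names and genotype labels. The sources used here do not give the time between transduction and harvest or the number of hairpins. Whether replicates came from separate cultures is not stated either, so the p-values reflect the spread between arrays, which may be technical.

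Initiation starts when eIF2, loaded with GTP and the initiator transfer RNA, joins the small ribosomal subunit together with eIF1, eIF1A, eIF3 and eIF5. The cap complex eIF4F, made of the cap-binding protein eIF4E, the scaffold eIF4G and the helicase eIF4A, recruits this particle to the messenger RNA, and eIF5B then joins the large subunit. Both steps are controlled by signals: 4E-binding proteins keep eIF4E from eIF4G until mTOR phosphorylates them, and stress kinases phosphorylate the alpha subunit of eIF2, which blocks its recharging by eIF2B. The arrays measure transcript levels only, not protein, phosphorylation or translation.

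Differences below subtract shNC from shPLEKHO1 on a log2 scale, taken as log2(intensity + 1) after quantile normalization, and are given ± SE with n = 3 arrays per group. "Rose", "fell" and "changed" mean an adjusted p under 0.05 in limma with Benjamini-Hochberg adjustment over all 18132 genes, and every adjusted p is from that fit unless a single probe set is named. Intensities are the deposited linear values, with the 3 arrays of a group in the order of their replicate numbers. Fewer cells of a kind and less RNA per cell cannot be told apart in such bulk samples.

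The targeted gene was checked first. PLEKHO1 had intensities of 110, 116 and 97.4 on the shPLEKHO1 arrays, against 135, 143 and 126 on the shNC arrays. It fell by 19.8%, a log2 difference of -0.32 ± 0.08 (adjusted p = 0.0123), and the exact two-sided permutation test gave 0.1, the smallest p that 3 against 3 arrays allow. In all, 1756 genes fell further. Median intensity per array lay between 55.7 and 57.1. All 7 measured markers of the line (among them VIM, PAX8 and EPAS1) were brighter than the median gene, and 5 of them changed: EPAS1 (0.54), KRT18 (0.52) and KRT8 (0.32) rose, and PAX2 (-0.33) and PAX8 (-0.25) fell. Their summed intensity was 24486 to 24895 on shPLEKHO1 arrays and 22181 to 22345 on shNC arrays. By contrast, 0 of 4 leukocyte, 0 of 4 endothelial and 0 of 5 fibroblast markers were above the median. The summed intensity of the fibroblast markers was 159 to 193 on shPLEKHO1 arrays and 149 to 162 on shNC arrays, and 1 of them, LUM, rose (45.8 with shPLEKHO1 and 25.7 with shNC). Among the array's control probe sets for ribosomal RNA, 2 of 3 for 28S passed at 1.06 ± 0.05 and 0.74 ± 0.08, and 2 of 3 for 18S at 0.31 ± 0.05 and 0.16 ± 0.05. The array's background probe sets were higher with shPLEKHO1 where rich in G and C. The one with 25 such bases passed at 0.18 ± 0.06 (2200 with shPLEKHO1 and 1926 with shNC, adjusted p = 0.038 over all probe sets). The others did not pass, with 0.19 ± 0.07 at 24 bases (0.0649) and 0.02 ± 0.06 at 3 bases. Several rises reported below are of similar size. The part of these differences in the results below was not tested.

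Initiation factors went in both directions. Of the 47 genes, 17 rose, 10 fell and 20 did not pass, so that 57.4% changed. Over all genes tested 34.1% changed, 18.1% up and 16.0% down. Initiation factors are bright, with 45 of 47 above the median intensity, and among all genes above that median 55.5% changed, 29.9% up and 25.6% down. Among the 1391 genes at or above the median brightness percentile of the initiation factors, 54.7% changed, 31.8% up and 22.9% down; both of these brighter backgrounds were chosen after the values were seen. The share of initiation factors that changed was therefore near that of other bright genes. Their median difference was 0.04, against 0.01 over all genes, and their median absolute difference was 0.17, against 0.12. The groups did not overlap on normalized values in 38 of the 47 (80.9%), against 45.0% of all genes. Neither the median absolute difference nor this share was computed for bright genes alone, so the part of brightness in them was not tested. Changes were small: 25 of the 27 changed factors differed by less than 1.5-fold, and 5 changed by at least 0.5 on the log2 scale (EIF5A2, EIF2S1 and EIF3J up, EIF1AX and EIF4ENIF1 down), against 9.78% of all genes. By size alone, 4.26% of the initiation factors lay below -0.5 and 6.38% above 0.5. Among genes above the median intensity these shares were 8.82% and 7.47%.

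**Figure D1:**
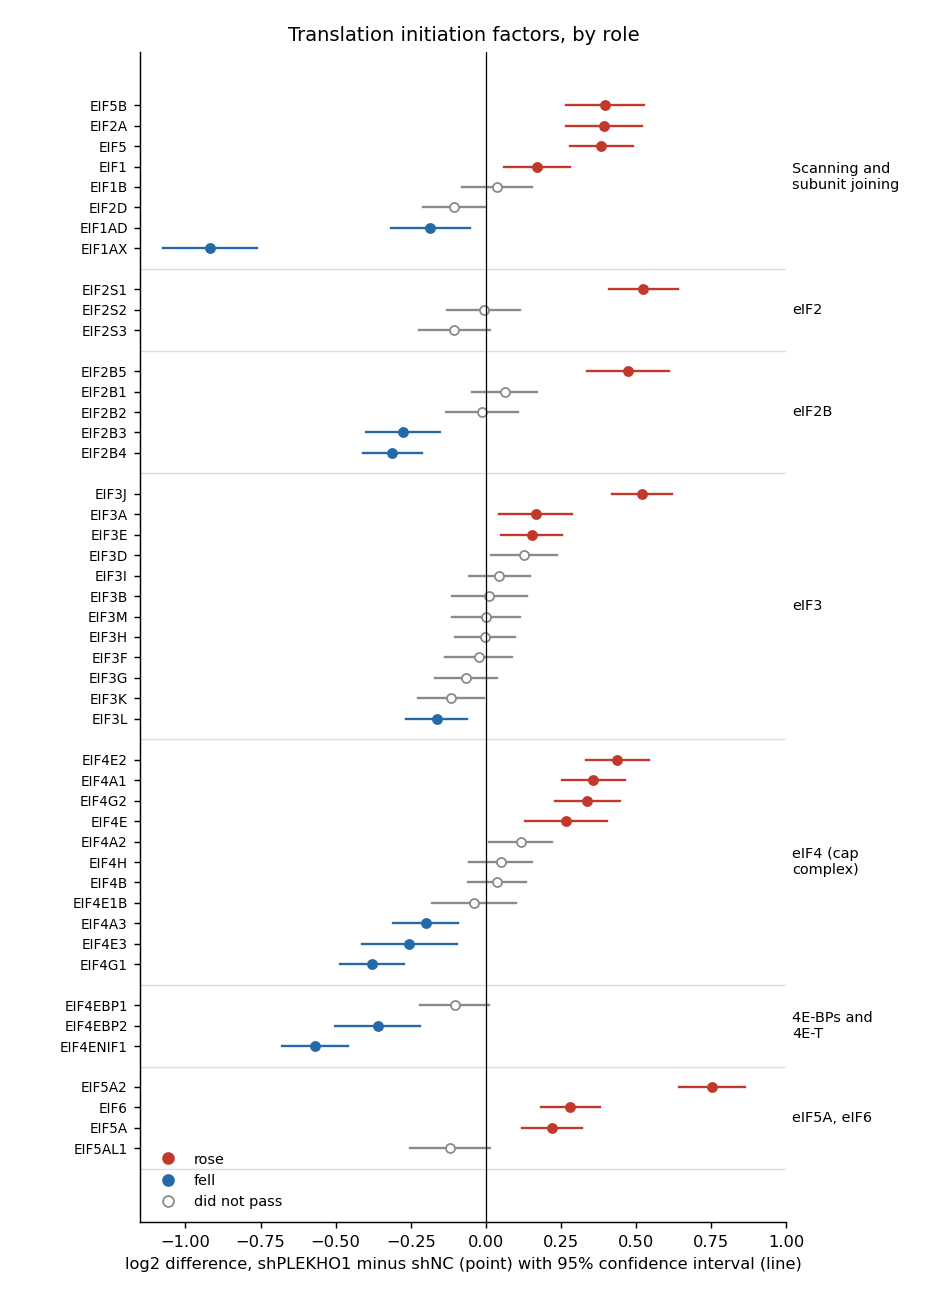
Log2 difference (shPLEKHO1 minus shNC) of 46 initiation factors with its 95% confidence interval, grouped by role and ordered within each role. Red points rose, blue points fell and open grey points did not pass; EIF5A2 is the highest at 0.75 and EIF1AX the lowest at -0.92, and most eIF3 subunits lie near 0.

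**Figure D2:**
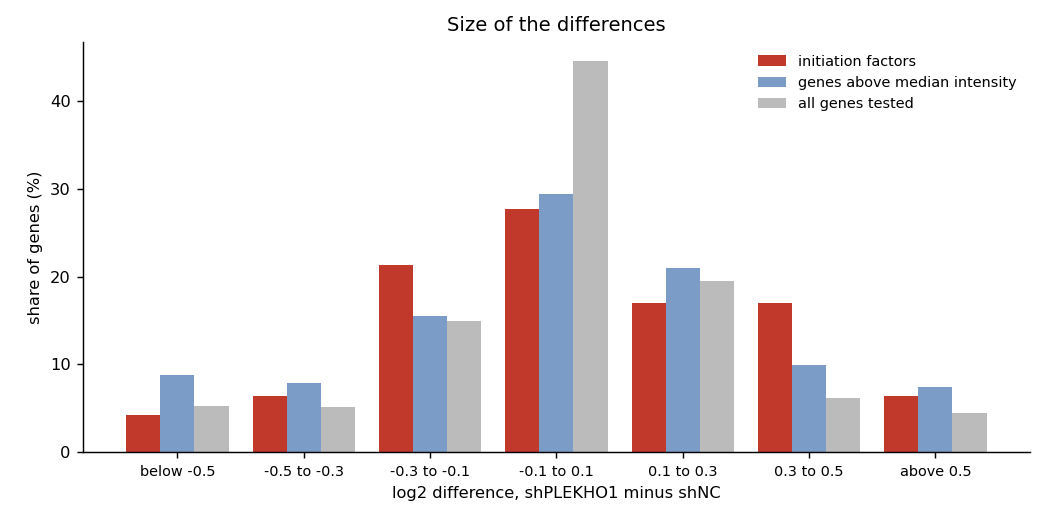
Share of genes (%) by size of the log2 difference, for the 47 initiation factors, all genes above the median intensity and all genes tested. Differences between 0.3 and 0.5 hold 17.0% of the initiation factors, against 9.94% of genes above the median and 6.17% of all genes, while differences below -0.5 hold 4.26%, 8.82% and 5.29%. In the same order, differences above 0.5 hold 6.38%, 7.47% and 4.49%, and those between 0.1 and 0.3 hold 17.0%, 21% and 19.5%. With 47 factors each bin holds few genes.

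EIF5A2, EIF4E and EIF4G1 are changed factors whose upstream sequence holds the E-box CACGTG, which MYC and related transcription factors bind, 2 times each, and EIF4E is a known target gene of MYC. These 3 were chosen for printing after the motif counts were seen. The 250 bases before each start site are from the RefSeq promoter table (build GRCh38.p14), printed in the direction of transcription with the E-box in capitals. They lie at chr3:170908638-170908887 on the minus strand for EIF5A2, at chr4:98929134-98929383 on the minus strand for EIF4E and at chr3:184314356-184314605 on the plus strand for EIF4G1, for which it is 1 of 3 annotated start sites.
EIF5A2: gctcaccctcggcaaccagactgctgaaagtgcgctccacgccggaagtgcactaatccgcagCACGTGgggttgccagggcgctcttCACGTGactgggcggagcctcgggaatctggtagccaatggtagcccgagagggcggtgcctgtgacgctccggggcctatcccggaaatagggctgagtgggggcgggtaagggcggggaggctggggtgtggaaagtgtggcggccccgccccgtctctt
EIF4E: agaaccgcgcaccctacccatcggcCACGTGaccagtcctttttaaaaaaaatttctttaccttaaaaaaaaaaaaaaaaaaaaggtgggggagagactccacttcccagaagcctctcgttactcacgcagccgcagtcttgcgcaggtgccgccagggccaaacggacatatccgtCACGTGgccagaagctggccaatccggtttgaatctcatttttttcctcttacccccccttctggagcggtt
EIF4G1: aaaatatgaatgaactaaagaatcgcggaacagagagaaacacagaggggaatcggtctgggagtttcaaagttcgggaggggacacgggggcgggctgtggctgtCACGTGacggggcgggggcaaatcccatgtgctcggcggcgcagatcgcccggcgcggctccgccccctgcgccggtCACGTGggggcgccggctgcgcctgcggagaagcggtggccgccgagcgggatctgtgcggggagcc
EIF5A2 and EIF4E rose and EIF4G1 fell, so factors with the same motif went both ways. Promoters of 39 initiation factors were in the table, and 10 of them held the motif: 2 of 14 that rose (EIF5A2 and EIF4E), 3 of 9 that fell (EIF4G1, EIF2B3 and EIF4A3) and 5 of 16 that did not pass. The motif reads the same on both strands. It was in 10 of 53 upstream stretches of these factors (18.9%), against 6.34% of all 35116 in the table. The stretches of initiation factors were richer in G and C, with a median of 66.0% against 58.0%, and the part of base composition in that share was not tested. A match is a description of the letters and not evidence that a factor binds there.

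Factors that find the start codon and join the subunits included EIF5B, EIF5 and EIF2A, which rose, and EIF1AX, which fell by its brightest probe set. Of the 9 genes in this group, 5 rose, 2 fell and 2 did not pass. That is 77.8% changed, against 55.5% of all genes above the median intensity and 34.1% of all genes, and 9 genes are few for comparing shares. EIF5B, the GTPase that joins the large subunit, had intensities of 870, 1011 and 899 on the shPLEKHO1 arrays, against 725, 677 and 694 on the shNC arrays. The groups did not overlap. It rose by 0.40 ± 0.06 (1.32-fold, adjusted p = 0.000942), and all 4 of its probe sets rose, by 0.40 to 0.59.

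EIF5, which makes eIF2 hydrolyse its GTP at the start codon, read 1631, 1614 and 1627 with shPLEKHO1, against 1301, 1225 and 1181 with shNC. The shPLEKHO1 arrays lay close together and above every shNC array. EIF5 rose by 0.38 ± 0.04 (1.31-fold, adjusted p = 0.000351), and 6 of its 7 probe sets rose. EIF2A, a separate protein that can deliver initiator transfer RNA without eIF2, read 1064, 1028 and 1097 with shPLEKHO1, against 845, 808 and 759 with shNC, again without overlap. It rose by 0.39 ± 0.05 (1.31-fold, adjusted p = 0.000857); its other probe set was dim, at 11.6 with shPLEKHO1 and 11.1 with shNC, and did not pass.

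EIF1AX codes for the X-linked eIF1A, which holds the small subunit open for scanning. It read 92.3, 112 and 100 on the shPLEKHO1 arrays, against 195, 193 and 191 on the shNC arrays, so every shPLEKHO1 array was far below the other group. By this probe set it fell by 0.92 on the log2 scale (SE 0.07, 1.89-fold lower, adjusted p = 3.57e-05). A second probe set of nearly the same mean brightness did not show the difference: it averaged 152 with shPLEKHO1 and 142 with shNC, at 0.10 ± 0.06 (adjusted p = 0.241 over probe sets), and the mean of both probe sets was at -0.41. The Y-linked copy, EIF1AY, is among the 5 that rose, and its values are not reported here.

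EIF1, which rejects wrong start codons and is among the brightest factors, averaged 7188 ± 140 with shPLEKHO1 and 6439 ± 69.9 with shNC (SD, n = 3). It rose by 0.17 ± 0.05 (adjusted p = 0.0242), but 1 of its 4 probe sets passed, and the call was lost without shPLEKHO1 replicate 1 (adjusted p = 0.0634) or 2 (0.0665) and without shNC replicate 1 (0.0708) or 3 (0.0597). EIF1AD, a nuclear protein with an eIF1A-like domain, fell by 0.18 on the log2 scale (SE 0.06, adjusted p = 0.0378). Its call held only without shNC replicate 1 when an array was left out; otherwise adjusted p ranged from 0.0722 to 0.123. EIF1B, a close copy of EIF1, was at 0.04 ± 0.05 (adjusted p = 0.650), and EIF2D, which acts in reinitiation and in recycling of ribosomes, was at -0.11 ± 0.05 (adjusted p = 0.12).

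**Figure D3:**
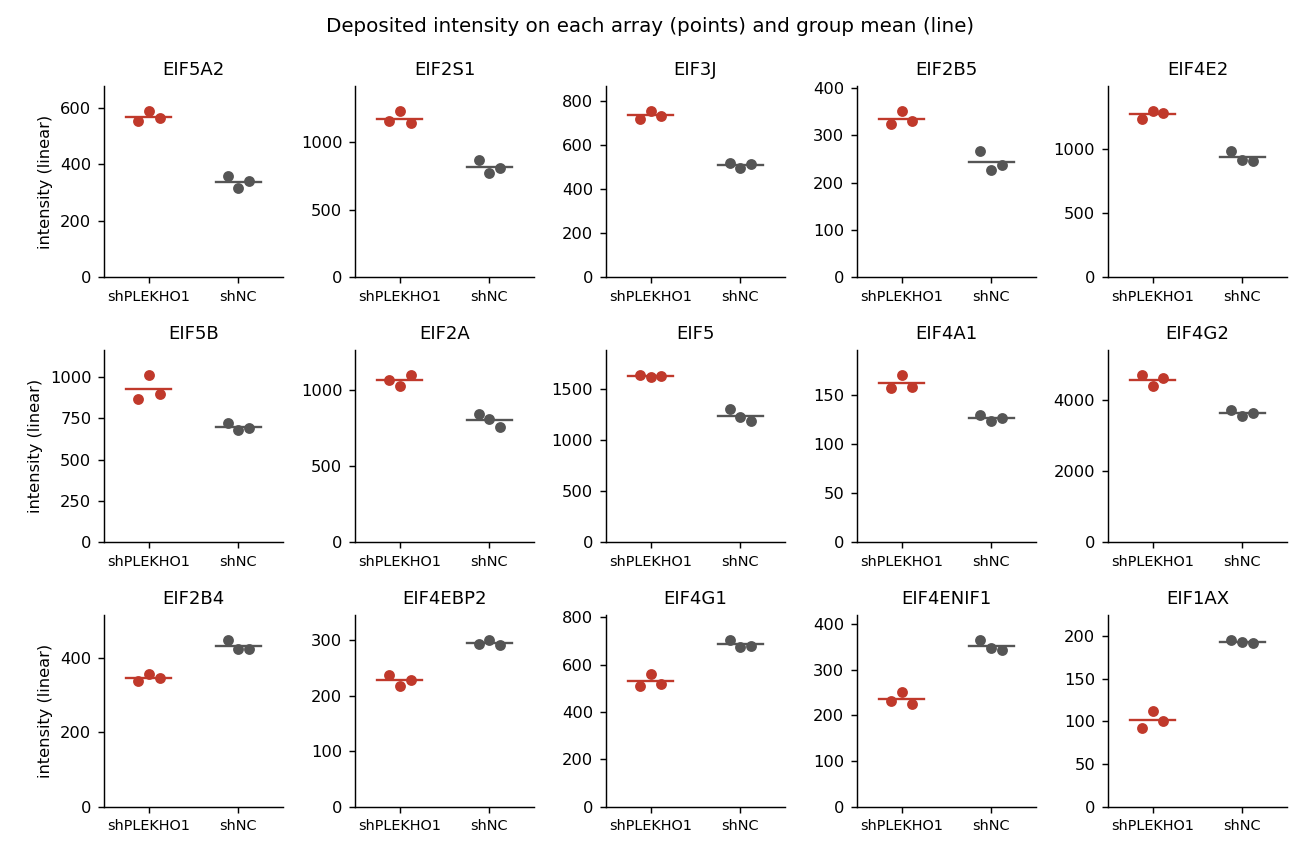
Deposited linear intensity on each array (points) and group mean (line) for the 15 factors shown here that changed by at least 0.3 on the log2 scale. EIF1AY is left out. Each panel has shPLEKHO1 on the left and shNC on the right, with axes starting at 0. The groups do not overlap in any of the 15 panels; the first 10, from EIF5A2 to EIF4G2, are higher with shPLEKHO1 and the last 5, from EIF2B4 to EIF1AX, are lower.

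The subunits of eIF2 differed among themselves. EIF2S1, the alpha subunit that stress kinases phosphorylate, read 1153, 1231 and 1138 with shPLEKHO1, against 871, 773 and 805 with shNC. The groups did not overlap. It rose by 0.52 ± 0.05 (1.44-fold, adjusted p = 0.000114), and of its 5 probe sets 3 rose, by 0.17 to 0.57, and 2 did not pass. EIF2S2, the beta subunit, was at -0.01 ± 0.05 (95% confidence interval from -0.13 to 0.11, adjusted p = 0.935). Of its dimmer probe sets, 1 fell (92.9 with shPLEKHO1 and 127 with shNC, -0.44) and another rose (20.8 and 18.2, 0.18). EIF2S3, the gamma subunit, which binds GTP, was at -0.11 ± 0.05 (interval from -0.22 to 0.01, adjusted p = 0.164), with 2 of its 4 probe sets lower past the threshold, and the mean of its probe sets fell (-0.15, adjusted p = 0.0107).

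The subunits of eIF2B, the exchange factor that recharges eIF2 with GTP, moved apart. EIF2B5, the catalytic epsilon subunit, had intensities of 324, 352 and 331 with shPLEKHO1, against 268, 226 and 237 with shNC. It rose by 0.47 ± 0.06 (1.39-fold, adjusted p = 0.000479) by its single probe set. EIF2B4, the delta subunit of the regulatory core, read 338, 357 and 345 with shPLEKHO1, against 449, 423 and 423 with shNC. It fell by 0.31 on the log2 scale (SE 0.04, 1.24-fold lower, adjusted p = 0.000744), by both of its probe sets, and neither gene's groups overlapped.

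EIF2B3, the gamma subunit that partners EIF2B5 in catalysis, fell by 0.28 on the log2 scale (SE 0.05, adjusted p = 0.00463) by its single probe set, from which it averaged 268 ± 9.64 with shPLEKHO1 and 328 ± 23.4 with shNC (SD, n = 3). The regulatory subunits EIF2B1 (alpha) and EIF2B2 (beta) were at 0.06 ± 0.05 (adjusted p = 0.374) and -0.01 ± 0.05 (adjusted p = 0.876). In this complex 1 of 5 subunits thus rose, 2 fell and 2 did not pass. The share that changed, 60%, was near the 55.5% of all genes above the median intensity (34.1% of all genes).

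Of 12 measured subunits of eIF3, the large scaffold that binds the small ribosomal subunit, 3 rose, 1 fell and 8 did not pass. The share that changed, 33.3%, was near the 34.1% of all genes and below the 55.5% of genes above the median intensity, where all 12 lie. The median absolute difference was 0.09, against 0.12 over all genes. EIF3J, a loosely attached subunit that sits near the decoding site, stood apart with intensities of 718, 754 and 733 with shPLEKHO1, against 517, 498 and 514 with shNC. The groups were widely separated. EIF3J rose by 0.52 ± 0.04 (1.43-fold, adjusted p = 6.03e-05), and both of its probe sets rose.

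The other 11 subunits were between -0.16 and 0.17. EIF3A, the largest subunit, rose by 0.17 ± 0.05 (adjusted p = 0.0416) and EIF3E by 0.15 ± 0.04 (adjusted p = 0.0282), while EIF3L fell by 0.16 on the log2 scale (SE 0.04, adjusted p = 0.0221). Adjusted over all probe sets, neither of the 2 probe sets of EIF3A passed (0.0501 and 0.0915). None of these 3 calls was stable when an array was left out. For EIF3A and EIF3E the call held only without shNC replicate 1, with adjusted p otherwise from 0.0746 to 0.137 and from 0.06 to 0.0937, and with median centring they did not pass either (0.0935 and 0.0989). For EIF3L it held only without shPLEKHO1 replicate 2, with adjusted p otherwise from 0.0503 to 0.0743, and with median centring adjusted p was 0.0795.

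EIF3D, which can bind the cap of some messenger RNAs itself, was at 0.13 ± 0.05 (adjusted p = 0.0804) by its brightest probe set. Its other probe set (3109 with shPLEKHO1 and 2785 with shNC) rose by 0.17 (adjusted p = 0.028 over probe sets). The mean of both rose as well (0.15, adjusted p = 0.02). EIF3K was at -0.12 ± 0.05 (adjusted p = 0.107). EIF3B, EIF3F, EIF3G, EIF3H, EIF3I and EIF3M were between -0.07 and 0.04, with adjusted p from 0.325 to 1. For the RNA-binding core subunit EIF3B, measured by 8 probe sets of which 0 passed, the 95% confidence interval ran from -0.11 to 0.14. For EIF3H it ran from -0.10 to 0.10. EIF3C, whose probe sets carry several symbols, was not analysed here.

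In the cap complex the scaffold eIF4G1 was lower while its relative eIF4G2 was higher. EIF4G1, which bridges eIF4E, eIF4A and eIF3, read 510, 559 and 520 with shPLEKHO1, against 705, 675 and 681 with shNC. It fell by 0.38 on the log2 scale (SE 0.05, 1.3-fold lower, adjusted p = 0.00043), and all 3 of its probe sets fell, by 0.38 to 0.49. EIF4G2, also called DAP5 or NAT1, lacks the binding site for eIF4E and supports translation that does not depend on it. It read 4699, 4384 and 4619 with shPLEKHO1, against 3724, 3550 and 3644 with shNC, and the groups did not overlap.

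EIF4G2 rose by 0.34 ± 0.05 (1.26-fold, adjusted p = 0.00086), and all 4 of its probe sets rose, by 0.34 to 0.46. The within-array log2 ratio of EIF4G1 to EIF4G2 differed between groups by -0.72 ± 0.06, without overlap. This was 1 of 7 pairs of related factors compared in this way, chosen after their values were seen, and the exact two-sided permutation test gave 0.1, or 0.117 after Benjamini-Hochberg adjustment over the 7 pairs; 0.1 is the smallest p the design allows.

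Among cap-binding proteins, EIF4E and EIF4E2 rose by their bright probe sets. EIF4E, the cap-binding protein itself, averaged 2234 ± 25.3 with shPLEKHO1 and 1846 ± 79.3 with shNC (SD, n = 3). It rose by 0.27 ± 0.06 (1.20-fold, adjusted p = 0.00882). Its 3 bright probe sets rose, by 0.27 to 0.36, a dimmer one fell (122 with shPLEKHO1 and 145 with shNC, -0.25), and 3 near background did not pass.

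EIF4E2, or 4EHP, binds the cap without binding eIF4G and represses many messenger RNAs. It read 1235, 1302 and 1286 with shPLEKHO1, against 988, 918 and 907 with shNC. Every shPLEKHO1 array was above every shNC array. It rose by 0.44 ± 0.05 (1.35-fold, adjusted p = 0.000192), and its other bright probe set rose by 0.54, while a dim one fell (54.4 with shPLEKHO1 and 80.3 with shNC, -0.55). With the mean of all probe sets neither EIF4E (0.07, adjusted p = 0.209) nor EIF4E2 (0.05, adjusted p = 0.526) passed. By the brightest probe sets, EIF4E2 exceeded EIF4E by 0.17 ± 0.08, and the groups overlapped (exact permutation p = 0.2, also after adjustment over the 7 pairs).

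EIF4E3, a cap-binding relative that lacks a typical cap pocket, fell by 0.25 on the log2 scale (SE 0.07, adjusted p = 0.0221). Only 1 of its 5 probe sets fell, the mean of all was at -0.07 (adjusted p = 0.219), and the call was lost without shPLEKHO1 replicate 3 (0.0595) and without shNC replicate 2 (0.0666) or 3 (0.0799). EIF4E1B, which is known from oocytes, read 13.3 with shPLEKHO1 and 13.7 with shNC. That is the level of the array's background probe set with 16 G or C bases (13.9 and 13.3), so a difference was not measurable at this brightness.

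The helicases were less certain. EIF4A1 read 157, 170 and 158 with shPLEKHO1, against 130, 123 and 127 with shNC. It rose by 0.36 ± 0.05 (1.28-fold, adjusted p = 0.000542), but by 1 of its 4 single-symbol probe sets, with the mean of them at 0.07 (adjusted p = 0.225). Other probe sets for this gene also carry another symbol and were not used. EIF4A2, its close relative, was at 0.12 ± 0.05 by its brightest probe set (adjusted p = 0.0924), while 2 dimmer ones fell (-0.32 and -0.49) and the mean of all fell (-0.17, adjusted p = 0.0259).

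EIF4A3, the related helicase that anchors the exon junction complex on spliced messenger RNA, fell by 0.20 on the log2 scale (SE 0.05, adjusted p = 0.0115), averaging 1350 ± 39.9 with shPLEKHO1 and 1545 ± 26.2 with shNC (SD, n = 3). EIF4B and EIF4H, which stimulate the helicase, were at 0.04 ± 0.04 (adjusted p = 0.561) and 0.05 ± 0.05 (adjusted p = 0.475). Of the 5 probe sets of EIF4B, 1 rose (958 with shPLEKHO1 and 837 with shNC, 0.18, adjusted p = 0.0211 over probe sets) and 4 did not pass. Their mean was at 0.02 (adjusted p = 0.676). Over the cap complex, 4 of 11 genes rose, 3 fell and 4 did not pass. The share that changed, 63.6%, compares with 55.5% of all genes above the median intensity and 34.1% of all genes.

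Of the proteins that hold eIF4E back, EIF4ENIF1 and EIF4EBP2 fell. EIF4ENIF1, or 4E-T, carries eIF4E into the nucleus and into P-bodies, where messenger RNA is kept silent. It read 232, 250 and 226 with shPLEKHO1, against 366, 348 and 343 with shNC. The groups were far apart. It fell by 0.57 on the log2 scale (SE 0.05, 1.48-fold lower, adjusted p = 6.06e-05); its dimmer probe set, at 87.9 with shPLEKHO1 and 101 with shNC, did not pass (-0.19, adjusted p = 0.169 over probe sets).

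EIF4EBP2, a 4E-binding protein, read 238, 218 and 228 with shPLEKHO1, against 292, 301 and 291 with shNC, without overlap. It fell by 0.36 on the log2 scale (SE 0.06, 1.28-fold lower, adjusted p = 0.00245), and 4 of its 5 probe sets fell, by 0.36 to 0.53. EIF4EBP1, the most studied 4E-binding protein, did not pass, at -0.10 ± 0.05 (interval from -0.22 to 0.01, adjusted p = 0.160), and 0 of its 3 probe sets passed. The difference between EIF4EBP2 and EIF4EBP1 was -0.26 ± 0.07 (exact permutation p = 0.1, or 0.117 over the 7 pairs). Of the 3 genes in this group, 2 fell and 1 did not pass. Among all genes above the median intensity 25.6% fell, against 16.0% of all genes, and 3 genes are too few for comparing shares.

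EIF5A2 had the largest rise of all initiation factors. It codes for the second form of eIF5A, a factor that carries the modified amino acid hypusine, helps ribosomes through difficult peptide stretches and is amplified in several cancers. It read 554, 590 and 563 with shPLEKHO1, against 358, 316 and 342 with shNC. It rose by 0.75 ± 0.05 (1.68-fold, adjusted p = 1.71e-05), and all 4 of its probe sets rose, by 0.62 to 0.86.

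EIF5A, the main form, averaged 5643 ± 57.3 with shPLEKHO1 and 4878 ± 67.2 with shNC (SD, n = 3). It rose by 0.22 ± 0.04 (1.17-fold, adjusted p = 0.00479), with 4 of 6 probe sets past the threshold. The rise of EIF5A2 exceeded that of EIF5A by 0.53 ± 0.03, without overlap of the within-array ratios (exact permutation p = 0.1, or 0.117 over the 7 pairs). EIF5AL1, a further copy, read 6.62 with shPLEKHO1 and 7.22 with shNC, at the level of the array's background. EIF6, which keeps the large ribosomal subunit from joining too early, averaged 2075 ± 39.4 with shPLEKHO1 and 1700 ± 55.1 with shNC and rose by 0.28 ± 0.04 (1.22-fold, adjusted p = 0.00136), by both of its probe sets.

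**Figure D4:**
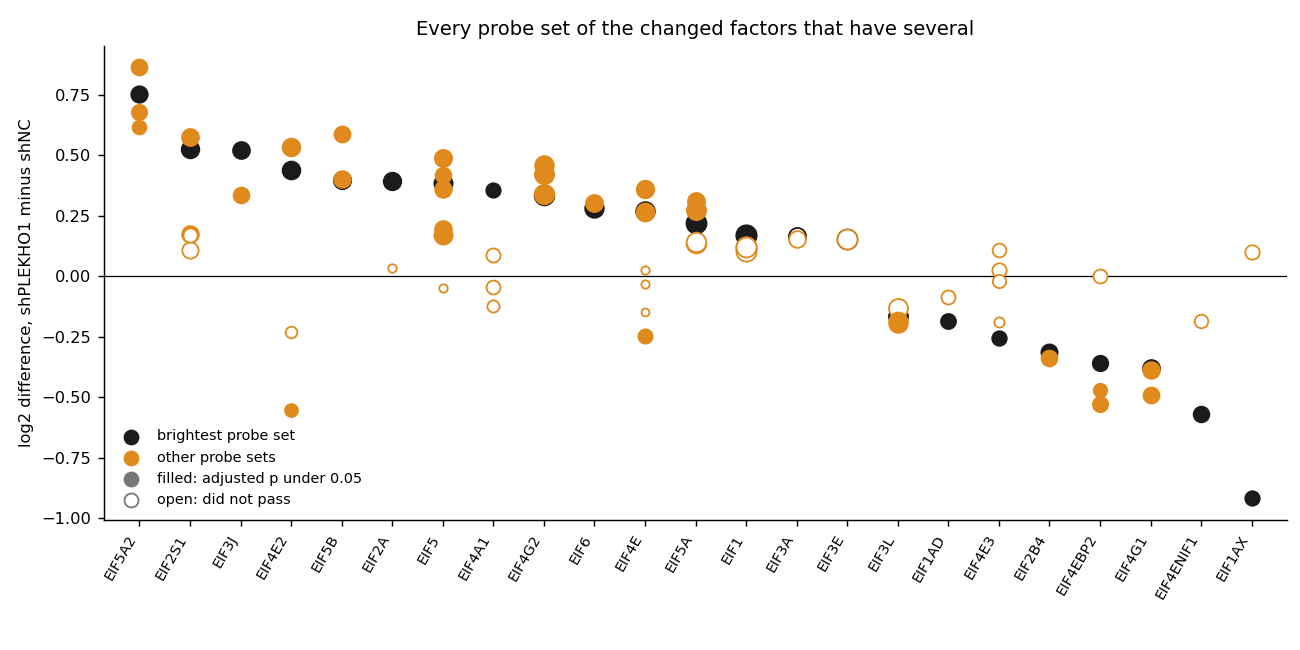
Log2 difference (shPLEKHO1 minus shNC) of every single-symbol probe set for the 23 changed factors that have several and are shown, ordered by the difference of the brightest (black); larger points are brighter, and filled points had an adjusted p under 0.05 over all probe sets. All probe sets of EIF5A2, EIF5B, EIF4G2 and EIF4G1 lie on the same side, whereas the second probe set of EIF1AX is at 0.10 and dimmer ones of EIF4E and EIF4E2 lie below 0.

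Of the 40 factors with several probe sets, 3 had at least 1 that rose and 1 that fell (7.5%): EIF2S2, EIF4E and EIF4E2. Over all genes with several probe sets the share was 3.93%. In 7 of the 23 changed factors with several shown here, every probe set passed in the same direction. Read singly, with adjustment over probe sets, 67 of the 151 probe sets shown changed, against 33.0% of all single-symbol probe sets. That background holds probe sets of every brightness, and the share among bright ones was not computed.

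Other genes of translation were described from lists of known members. Of 49 measured genes 18 rose and 7 fell (51.0% changed), with a median difference of 0.05. Of these, 45 lie above the median intensity, where 55.5% of genes changed, against 34.1% of all genes, so the share was near that of bright genes. Partners in messenger RNA binding and ribosome recycling rose in 6 of 14 cases and fell in 2 (57.1% changed). ABCE1, which splits ribosomes after termination, rose by all 5 of its probe sets (0.52 ± 0.06, adjusted p = 0.000327). BZW1 and BZW2, which mimic eIF5 and raise the strictness of start codon choice, rose by 0.39 ± 0.04 (adjusted p = 0.000236) and 0.37 ± 0.05 (adjusted p = 0.00123), again by every probe set. PAIP1, a partner of poly(A)-binding protein, was at 0.54 ± 0.06 by its brightest probe set (adjusted p = 0.000183), but its 4 probe sets split evenly in direction, and averaged together they fell (-0.17, adjusted p = 0.0149).

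Genes that control eIF2 and eIF4F by signals rose in 8 of 18 cases and fell in 4 (66.7% changed). Of these 18, 17 lie above the median intensity, where 55.5% of genes changed, against 34.1% of all genes, and 18 genes are few for comparing shares. RPTOR, the substrate-binding subunit of mTOR complex 1, rose by 0.71 ± 0.05 (adjusted p = 4.2e-05), by 2 of its 6 probe sets. RPS6KB1, the S6 kinase that acts on EIF4B, rose by 0.66 ± 0.06 (adjusted p = 0.000124), by 3 of 7. MKNK2, a kinase that phosphorylates eIF4E, fell by 0.52 on the log2 scale (SE 0.04, adjusted p = 7e-05), by 1 of 5. FMR1, a repressor of translation that works with CYFIP1 on eIF4E, fell by 0.92 (SE 0.06, adjusted p = 1.9e-05), by 5 of 8 probe sets, while 1 rose. The means of all probe sets were smaller, at 0.22 for RPTOR, 0.26 for RPS6KB1, -0.15 for MKNK2 and -0.27 for FMR1. Each of these means passed the threshold.

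Of 8 elongation factors 1 fell and 7 did not pass by their brightest probe sets. For this list and the next ones, 55.5% of all genes above the median intensity changed, against 34.1% of all genes, and the lists are small. For EEF1A1, the common form of the elongation factor that delivers transfer RNA (0.04, adjusted p = 0.584), 3 of 6 probe sets fell, and the mean of all fell (-0.25, adjusted p = 0.00163). For EEF2K, the kinase that inhibits EEF2 (-0.04, adjusted p = 0.737), 1 of 2 fell, and the mean fell (-0.29, adjusted p = 0.00594). The one that fell by its brightest probe set was EEF1A2, the muscle and brain form of EEF1A1 (204 ± 22.1 with shPLEKHO1 and 301 ± 3.78 with shNC, SD, n = 3), which fell by 0.56 on the log2 scale (SE 0.07, adjusted p = 0.000444). Of 5 termination factors 3 rose: ETF1, the release factor that reads stop codons (0.53 ± 0.04, adjusted p = 6.2e-05, with 3 of 4 probe sets up and 1 down), HBS1L (0.32 ± 0.05, adjusted p = 0.00112) and GSPT1, the partner of ETF1 (0.23 ± 0.05, adjusted p = 0.00612). The 5 probe sets of GSPT1 were split, with 2 up and 2 down, and the average of all was at -0.01. The enzyme DHPS, which begins the hypusine modification of eIF5A, rose by 0.16 ± 0.05 (adjusted p = 0.0356), a call that held only without shPLEKHO1 replicate 3 when an array was left out (otherwise adjusted p from 0.0649 to 0.111, and 0.0669 with median centring). Neither of the 2 mitochondrial initiation factors passed.

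**Figure D5:**
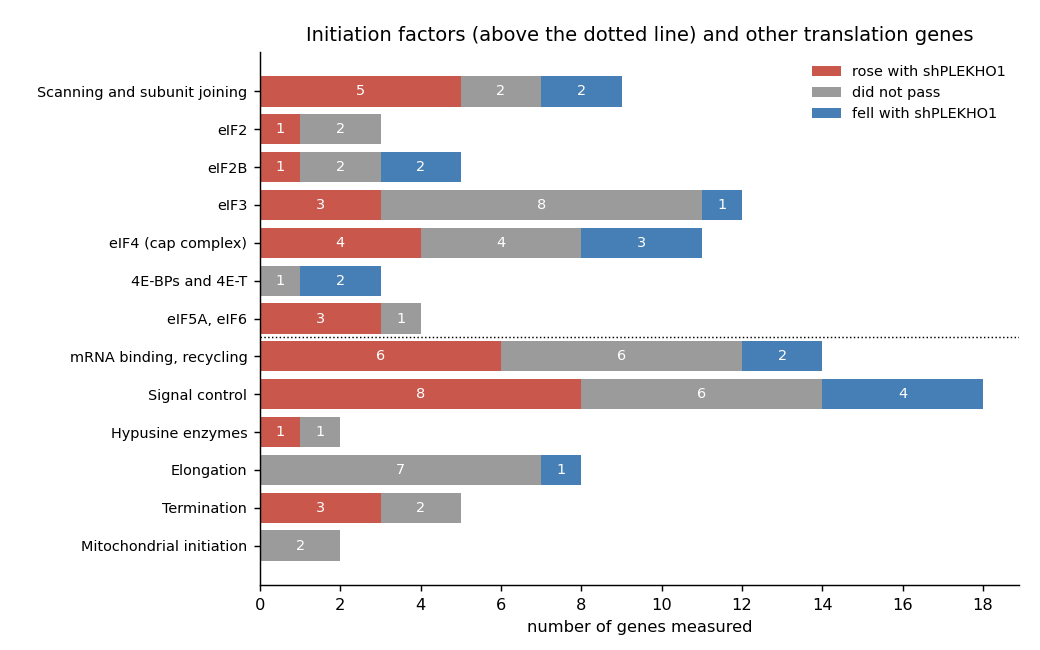
Number of genes that rose (red), did not pass (grey) and fell (blue) with shPLEKHO1 in each role of the initiation factors, above the dotted line, and in the other lists of translation genes, below it. Rises lead among scanning factors (5 of 9), 8 of 12 eIF3 subunits did not pass, the proteins that restrain eIF4E hold 2 falls and 0 rises, and 7 of 8 elongation factors did not pass by their brightest probe sets. Among all genes above the median intensity 29.9% rose and 25.6% fell (18.1% and 16.0% of all genes), and the groups are small.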

How the data were processed

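Total RNA was labelled and hybridized to 6 Affymetrix arrays, per the labels' protocols. The authors deposited 1 linear intensity per probe set and array, between 4.33 and 19770, and the submitters' processing notes name Affymetrix Expression Console. Neither its version and algorithm nor any normalization is given in the sources used here. Of 49395 probe sets, 102 controls, 1832 with several symbols and 2473 without a symbol were left out of the gene tests, including 22 that name an initiation factor beside another symbol. All 47 factors matched the RefSeq gene table by Entrez identifier.

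Values were taken as log2(intensity + 1) and quantile normalized over all probe sets. Each gene was read from its brightest probe set over 6 arrays, which gave 18132 genes, and limma 3.58.1 (lmFit, eBayes; R 4.3.3) compared the groups without covariates (4 residual and 3.62 prior degrees of freedom). Precision is limited by the number of arrays, and fold changes of dim genes are understated. The steps were tested on simulated data; the pass mark for recovery was lowered after a first run missed it, with the simulation unchanged. The members and lists were chosen with earlier results of these data known. Per-array values are given for factors that changed by at least 0.3, except EIF1AY, which is counted but not shown; up to 4 changed genes of each further list, those with the smallest p, are named. Protein sequences were not used here. Promoters were searched in the 250 bases before the start site. Alternatives were median centring, no normalization, no pseudocount, leaving out the dimmest 30% of genes, the mean of probe sets, each probe set alone, a robust fit with a variance trend, weights per array, a block for the replicate number, and omission of each array.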

Additional observations from a re-analysis of the deposited data

How the results depend on the processing

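The counts of factors and partner genes stayed within 1.5 times the reported ones and PLEKHO1 passed under all 14 alternatives. Factors that rose ranged from 14 to 19 and factors that fell from 7 to 14. With 1 array left out the ranges were 14 to 16 and 7 to 9, and partner genes that changed numbered 22 to 24. PLEKHO1 lay between -0.37 and -0.25 (adjusted p from 0.00265 to 0.0432). Without EIF1AY, 10 of 16 rises and 7 of 10 falls passed in all 14, which do not include single probe sets. Same-numbered arrays of the 2 groups did not deviate together (correlations of -0.164, -0.156 and -0.0466), so the numbers do not pair them; with the replicate number as a block 14 factors rose, 7 fell, 22 partner genes changed and PLEKHO1 was at -0.32.

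Directions turned with the choice of probe set. Other probe sets read on their own opposed the reported direction at 0.10 for EIF1AX, -0.044 and -0.12 for EIF4A1, -0.25, -0.031 and -0.15 for EIF4E, -0.55 and -0.23 for EIF4E2, 0.027 and 0.11 for EIF4E3 and -0.0502 for EIF5. Among partner genes they did so at -0.95 and -0.87 for PAIP1, 0.0301 and 0.46 for FMR1, -0.0235 for RPTOR, -0.0108 and -0.12 for RPS6KB1, -0.72 for ETF1 and -0.25, -0.24 and -0.12 for GSPT1. Past the threshold in the opposite direction were 2 of PAIP1, 1 of FMR1, 1 of ETF1 and 2 of GSPT1, but 0 of RPTOR and 0 of RPS6KB1. The mean of probe sets turned PAIP1 (-0.17, adjusted p = 0.0149) and GSPT1, which did not pass there (-0.0082, adjusted p = 0.908). The cause was not tested. EIF4E1B and EIF5AL1 were too dim to keep when the dimmest genes were left out.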
